A study of Homo sapiens with 8 samples.

Results

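SH-SY5Y cells kept for 24 h at 50 μM maleic acid were compared with untreated SH-SY5Y cells, using every probe of the array. The members of the comparison were chosen by dose label alone, and they are 4 of the 8 arrays of the series, 2 at 50 μM and 2 of the control. The SH-SY5Y line was established from a human neuroblastoma and was bought by the study from a cell bank. It was grown in a mixture of minimum essential and F12 media with glutamine, antibiotics and heat-inactivated serum, which both groups shared. The control cells received no maleic acid, and a vehicle is not named for them. The other 4 arrays carried RNA of cells at 10 and at 100 μM and are used here for scaling, for the spread between arrays and as neighbouring doses. At each dose, 1 RNA sample was hybridised to 2 arrays. The groups therefore hold technical replicates only, and a difference between cultures cannot be told apart from a difference between doses. The study's design asked what maleic acid does to the expression profile of neuronal cells.

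Maleic acid is a small unsaturated dicarboxylic acid, the cis isomer of fumaric acid. Its double bond can react with thiols such as that of glutathione, and in rats high doses injure the proximal tubule of the kidney and disturb the citric acid cycle and the use of ketone bodies. Cells answer thiol-reactive compounds in general through NRF2, a transcription factor that is held back by the cysteine-rich protein KEAP1 and that switches on glutathione synthesis and detoxifying enzymes. SH-SY5Y cells keep features of immature noradrenergic neurons, such as the enzymes of catecholamine synthesis, and they divide continuously, so that genes of replication and repair are active in them.

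Each probe gave 1 intensity per array, in the linear units deposited by the authors, and a normalised level, which is log2 of that intensity after quantile normalisation over the 8 arrays. A log2 fold is the mean normalised level of both arrays at 50 μM minus that of both control arrays. The standard error (SE) of this difference was taken from the spread between technical arrays in a limma fit over the 8 arrays. A gene or probe is called higher or lower beyond array noise where the Benjamini-Hochberg adjusted p of that fit, taken over all genes or all probes, was under 0.05. Such a p compares 2 RNA samples and not 2 conditions. A normalised intensity of 50 was taken as background, and where a probe was under it on both arrays of a dose the difference is given as "at least" a fold against that level. Both arrays of a dose correlated closely (Pearson's r across probes 0.992 for the control and 0.993 at 50 μM, the probes of an array not being independent), yet 627 and 570 probes differed over 2-fold between them. The median probe was at 484 and 479 without maleic acid and at 488 and 524 with 50 μM, but the 25th percentile was 72 and 79 in untreated cells and 125 and 121 at 50 μM. Deposited intensities of dim probes were thus higher at 50 μM before scaling, and the number of arrays limits the precision.

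The RNA carried the marks of the labelled cell line at both doses. CHGA, a secretory granule protein, had normalised levels of 18.11 and 17.98 untreated and of 17.76 and 17.94 with 50 μM. DBH, which makes noradrenaline from dopamine, was at 16.37 and 16.31 against 16.19 and 16.28. Of the 24 noradrenergic identity genes measured, 0 passed the test and their median log2 fold was −0.13. HAND2, a transcription factor of sympathetic neurons, had a log2 fold of 0.55 ± 0.16 (SE) and the receptor kinase ALK one of −0.56 ± 0.18, and neither was beyond array noise. Markers of Schwann cells and glia had a median of 0.04 with 0 of 8 called, and GFAP, AQP4 and CDH19 were under background on all 4 arrays. Their summed level was 59.8 and 59.4 untreated and 59.6 and 59.2 with 50 μM. Immune markers summed to 76.3 and 77.2 against 79.0 and 81.0, with PTPRC and CD3E under background on all 4 arrays, HLA-DRA higher and LYZ, a probe at background level, lower. Fibroblast markers summed to 73.8 and 73.5 against 73.1 and 73.2, with FAP higher, and epithelial markers to 56.5 and 56.3 against 56.1 and 56.4, with KRT14 higher (log2 fold 0.69 ± 0.13, adjusted p = 0.0472 in limma).

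Most genes lay close to 0. Among 31741 probes, those above 2-fold at 50 μM numbered 357 (1.12%), those below it 144 (0.454%), and 154 (0.485%) and 32 (0.101%) of them were also beyond array noise. Averaged over the probes of a gene, 292 of 18255 genes were called higher (1.6%) and 345 lower (1.89%), beside 2370 and 2988 with an unadjusted p under 0.05. Both arrays at 50 μM lay above both control arrays in 5368 genes (29.4%) and below them in 6262 (34.3%). The over 2-fold probes were mostly dim. Of the 357 higher ones, 324 had a control level under the median level and 167 were under background on both control arrays. The scaling set how many dim probes stood on the higher side, with 4807 higher and 89 lower probes after median scaling and 5454 and 60 without scaling, where the median log2 fold of all probes moved to 0.14. By gene, the calls were 2937 higher and 2786 lower after median scaling and 23 and 0 without scaling. Leaving out control array 1 or 2 or array 1 or 2 at 50 μM, which leaves a dose with 1 array, brought the calls to between 9 and 40 higher and between 3 and 12 lower genes. Of 67 differences of single probes and genes, 53 to 60 then lost their call, and those of KIF15 and NT5C1B stayed called.

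**Figure D1:**
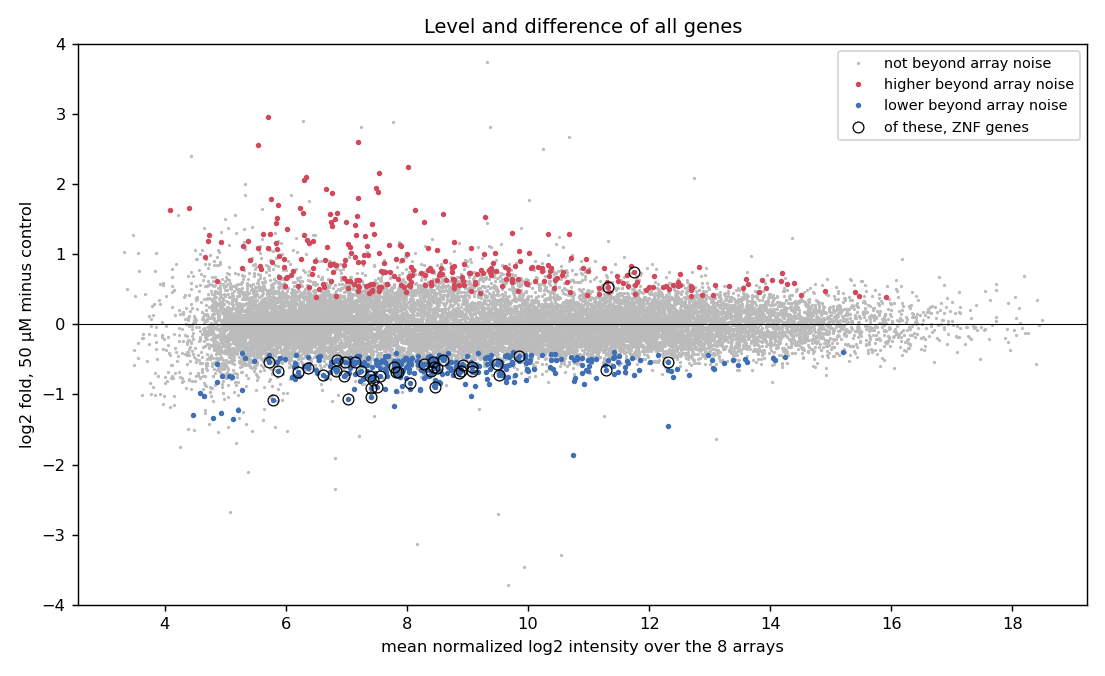
Each point is a gene; the horizontal axis gives its mean normalised log2 intensity over the 8 arrays and the vertical axis its log2 fold at 50 μM over the control, with 292 genes higher and 345 lower beyond array noise in colour, ZNF genes among them circled and 12 genes outside the vertical range of ±4 not drawn. Genes called higher lie further to the dim side (median control level 7.67) than genes called lower (8.85).

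Genes called higher and genes called lower differed in level, length and size of change. The 292 higher genes had a median control level of 7.67 and a median log2 fold of 0.75, and 75 were over 2-fold. The 345 lower genes had a median control level of 8.85 and a median log2 fold of −0.59, with 13 over 2-fold, and all genes had a median control level of 9.29. The median gene length was 17.6 kb for the higher genes, 47.5 kb for the lower ones and 26.3 kb for all genes. These are descriptions of the called genes and carry no test.

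Most of the probes that stood highest at 50 μM were dark in the control, and 10 of the 12 shown were under background on both control arrays. KIF15, a kinesin that helps to keep the mitotic spindle bipolar, gave deposited intensities of −1 and 9 untreated but 2622 and 2920 with 50 μM, beside 1974 and 1911 with 10 μM and 1560 and 1753 with 100 μM. Only the control arrays were without signal, and the probe was at least 50.1-fold higher at 50 μM (adjusted p = 7.78e-07 in limma). C21orf90 gave 13 and 2 untreated, 42 and 3 with 10 μM, 1063 and 1097 with 50 μM and −6 and 24 with 100 μM, so that only the arrays at 50 μM carried a signal (at least 19-fold higher, adjusted p = 0.0152). Probes that lose or gain nearly all signal at 1 dose were seen elsewhere in the series too. PTDSS1, an enzyme of phosphatidylserine synthesis, gave 27536 and 31470 at 10 μM and between −2 and 41 on the 6 other arrays, and at 100 μM 9 probes lay over 8-fold below every other array, RPS28 and NRCAM among them. Whether the signals of KIF15 and C21orf90 are of that kind was not tested.

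The other high probes were dim to moderate. NT5C1B, a cytosolic 5′-nucleotidase, gave 36 and 43 untreated but 314 and 325 with 50 μM (log2 fold 2.25 ± 0.14, adjusted p = 0.00539), beside 476 and 397 with 10 μM and 562 and 494 with 100 μM. GPR174, a receptor for lysophosphatidylserine on lymphocytes, gave 19 on both control arrays and 228 and 238 at 50 μM, at least 3.76-fold higher. ULBP1, a stress ligand of the natural killer cell receptor NKG2D, gave 24 and 15 against 238 and 219, at least 3.69-fold higher. That no array at 50 μM overlapped with a control array is how these probes were picked and carries no test. The second probe of ULBP1 had a log2 fold of 0.17 and was not called.

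PKD1L1-AS1, an antisense RNA of a polycystin gene, gave 27 and 44 untreated but 278 and 276 with 50 μM, and the antisense RNA FAM181A-AS1 4 and 22 against 134 and 110. STEAP4, a metalloreductase, gave 3 and 15 against 132 and 101, and its second probe had a log2 fold of −0.20. PSG1, a pregnancy-specific glycoprotein of the placenta, gave −10 and 12 against 132 and 100. At 50 μM, PSG1, STEAP4 and FAM181A-AS1 lay not far above the background level. NHERF4, a scaffold of membrane transporters, KIRREL3, an adhesion protein of synapses, and TNN, a tenascin, complete the 12, with bounds of at least 1.31-fold, 1.47-fold and 1.77-fold. The 2 further probes of KIRREL3 had log2 folds of 0.69 and −0.23. In all, 96 genes met the rule for high probes, 46 of them with a control under background.

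**Figure D2:**
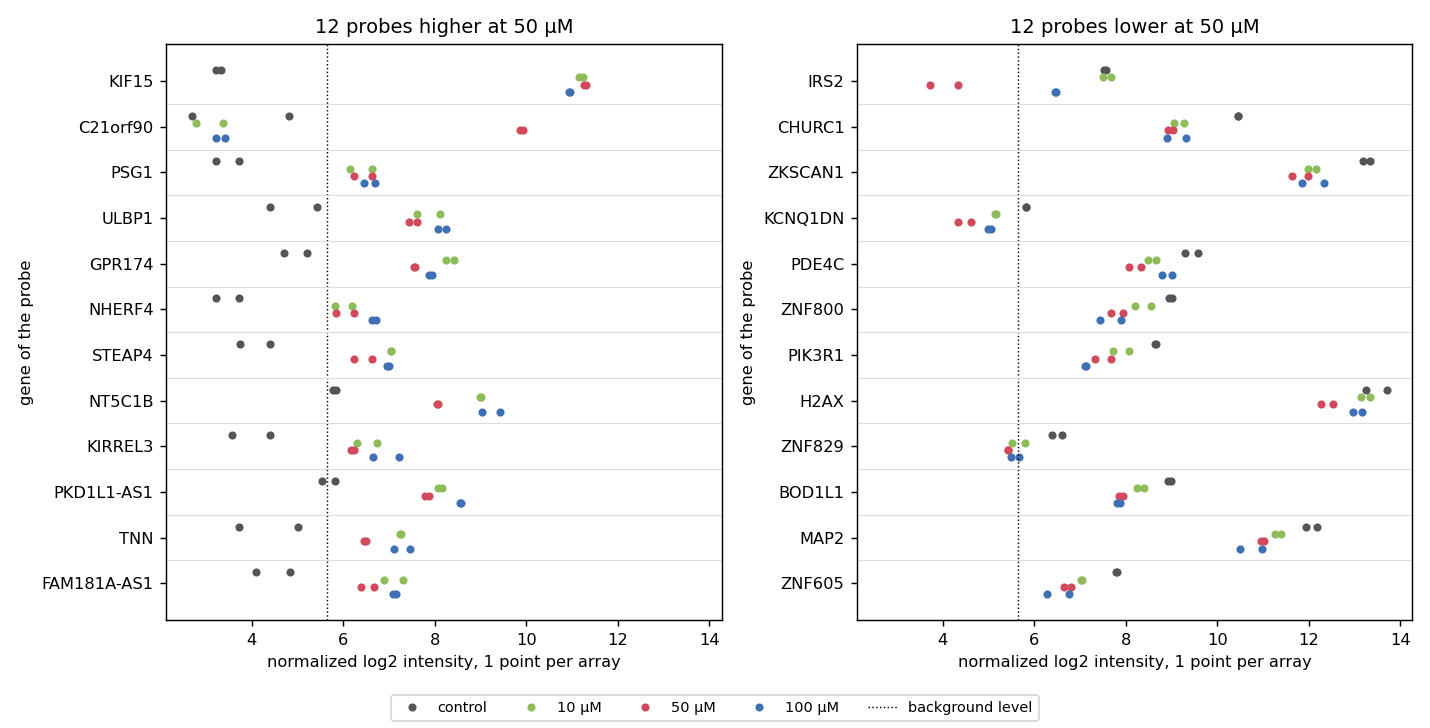
Normalised log2 intensity of the 12 highest (left) and 12 lowest (right) probes of the rule, with 1 point per array, 2 arrays per dose, and a dotted line at the background level. The control points stand apart from all treated points at most of the higher probes, KIF15 foremost, while the dim IRS2 probe is lowest at 50 μM.

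At many of these probes the control, and not 50 μM, stood apart. In normalised level, both control arrays lay over 2-fold below each of the 6 other arrays at 101 probes (0.318%). They lay over 2-fold above them at 3 (0.00945%), the probes of CHURC1, EFCAB6 and MTBP. Before scaling MTBP overlapped, with 71 and 63 untreated, 63 and 17 with 10 μM and 65 and 47 with 50 μM. At the 101 probes the medians were 24 and 34 without maleic acid, 199 and 165 with 10 μM, 182 and 179 with 50 μM and 203 and 240 with 100 μM, in deposited intensity. That the control lies below the other doses is how these probes were picked and carries no test. On both control arrays, 52 of the 101 were under background. The control is 1 RNA sample, and its own state cannot be told apart from an effect shared by the 3 doses.

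**Figure D3:**
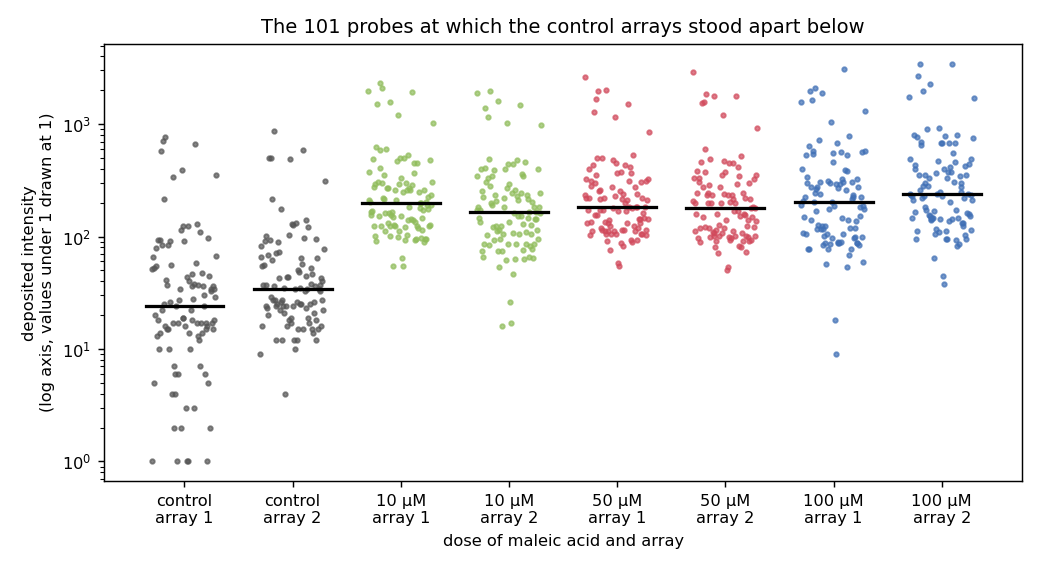
Deposited intensity, on a log axis with values under 1 drawn at 1, of the 101 probes at which both control arrays lay over 2-fold below all others in normalised level, with 1 column of points per array and the median as a bar. The control medians of 24 and 34 lie below the medians of the 6 treated arrays, which run from 165 to 240.

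Few probes set 50 μM apart from every other array. Both arrays at 50 μM lay over 2-fold above the 6 others at 3 probes (0.00945%), those of C21orf90 and CHMP4B and 1 probe without a name here, and below them at 2 (0.0063%), those of IRS2 and ROBO4. CHMP4B, a subunit of the ESCRT-III membrane scission machinery, gave 801 and 713 untreated, 647 and 561 with 10 μM, 2028 and 2145 with 50 μM and 541 and 607 with 100 μM. That its arrays at 50 μM stood above all others is how the probe was picked and carries no test. The log2 fold of CHMP4B over the control was 1.52 ± 0.09 (adjusted p = 0.00539 in limma, from the same values). Its other probe gave 31262 and 33464 against 38000 and 36760 and had a log2 fold of 0.41 ± 3.01, with 1 array at 100 μM without signal, which makes its SE wide. ROBO4 was at background level throughout, with 9 and 21 untreated but 44 and 31 with 50 μM before scaling.

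Among the lower probes IRS2 stood first, but on its dim probe alone. IRS2 is the adaptor that links the insulin and IGF1 receptors to PI3-kinase. Its dim probe gave 175 and 179 untreated, 190 and 163 with 10 μM, 49 and 33 with 50 μM and 72 and 104 with 100 μM. The arrays at 50 μM were the lowest of the 8 (at least 3.74-fold lower, adjusted p = 0.00368). The bright probe gave 54687 and 45236 against 35248 and 41868, with a log2 fold of −0.21 ± 0.14 (adjusted p = 0.38). The probes of the gene thus differed, and the call by gene came from the dim probe.

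The other low probes included well-lit ones. ZKSCAN1, a zinc finger protein with KRAB and SCAN domains, gave 13742 and 11780 untreated but 3374 and 4678 with 50 μM (log2 fold −1.45 ± 0.20, adjusted p = 0.0316). CHURC1, known in the chick as a zinc-binding factor of neural induction, gave 1785 and 1738 against 546 and 632 (−1.47 ± 0.16). H2AX, the histone variant that is phosphorylated at DNA breaks, gave 17870 and 12403 against 5276 and 6827 (−1.08 ± 0.19). The second probes of CHURC1 and H2AX had log2 folds of −0.23 and −0.36, neither called. MAP2, the microtubule protein of dendrites, gave 5236 and 5942 against 2214 and 2303 (−1.07 ± 0.17). BOD1L1, which protects stalled replication forks, gave 585 and 548 against 270 and 303 (−1.07 ± 0.10). PDE4C, a cAMP phosphodiesterase, gave 907 and 721 against 316 and 397 (−1.22 ± 0.15). The second probes of these 3 genes lay on the same side without a call, at −0.19, −0.63 and −0.53.

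Of the 12 lowest probes, 7 genes had 8 further probes, and all 8 were below 0 with 0 called. Over all called probes with a further probe of the same gene, 258 of 368 further probes (70.1%) had the same sign, 10 were called in the same direction and 2 in the opposite one. At 2 of the dimmest of these probes the deposited intensities did not themselves show the difference. ZNF829 gave 75 and 71 untreated but 72 and 62 with 50 μM, and after scaling it was under background at 50 μM and at least 1.81-fold lower. KCNQ1DN, a noncoding RNA of an imprinted region, gave 36 and 44 untreated but 54 and 40 with 50 μM before scaling, and its fitted difference, under background at 50 μM and so no measure of size, turned from −1.34 to 0.15 after median scaling and to 0.22 without scaling. In all, 17 genes met the rule for low probes.

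Promoters are shown for 5 genes called lower, 4 of them among the lowest probes and GCLM, taken up below, as examples of core motifs counted here over all genes. IRS2 and MSH3 also hold TGACNNNGC and are not shown. Only promoters with a match were picked. Those of KCNQ1DN, PDE4C, ZNF800, PIK3R1, MAP2 and ZNF605, also among the lowest probes, held none of the cores marked here. The sequences are the 250 bases before the RefSeq start of the gene on its own strand (build GRCh38.p14), 5′ to 3′. Capitals mark CCGGAAG, the core bound by factors of the ETS family, TGACNNNGC, the core of the electrophile response element that NRF2 binds, and the TATA sequence TATAAA, each searched on both strands. No base belongs to more than 1 match among those shown.
ZKSCAN1, chr7:100015346-100015595, plus strand: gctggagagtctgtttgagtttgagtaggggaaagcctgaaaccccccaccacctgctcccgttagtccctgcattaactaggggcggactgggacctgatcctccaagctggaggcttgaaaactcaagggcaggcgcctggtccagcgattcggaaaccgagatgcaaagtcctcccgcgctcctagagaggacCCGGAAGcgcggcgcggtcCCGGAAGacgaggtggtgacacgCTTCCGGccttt
ZNF829, chr19:36916292-36916541, minus strand: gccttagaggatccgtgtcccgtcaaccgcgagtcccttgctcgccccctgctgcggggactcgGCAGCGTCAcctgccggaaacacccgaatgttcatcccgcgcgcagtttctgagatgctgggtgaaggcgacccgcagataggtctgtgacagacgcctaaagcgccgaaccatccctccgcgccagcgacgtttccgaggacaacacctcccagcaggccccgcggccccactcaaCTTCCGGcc
BOD1L1, chr4:13627726-13627975, minus strand: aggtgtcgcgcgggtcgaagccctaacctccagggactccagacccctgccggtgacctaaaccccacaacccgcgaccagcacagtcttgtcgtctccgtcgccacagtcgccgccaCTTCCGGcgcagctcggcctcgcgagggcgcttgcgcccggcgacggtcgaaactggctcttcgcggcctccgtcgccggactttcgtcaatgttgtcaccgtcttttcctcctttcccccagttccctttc
H2AX, chr11:119095466-119095715, minus strand: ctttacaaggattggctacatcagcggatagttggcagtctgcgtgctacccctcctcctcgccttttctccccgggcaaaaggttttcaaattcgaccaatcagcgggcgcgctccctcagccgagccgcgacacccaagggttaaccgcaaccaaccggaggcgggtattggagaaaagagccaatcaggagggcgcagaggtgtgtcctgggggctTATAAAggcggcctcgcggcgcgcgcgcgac
GCLM, chr1:93909431-93909680, minus strand: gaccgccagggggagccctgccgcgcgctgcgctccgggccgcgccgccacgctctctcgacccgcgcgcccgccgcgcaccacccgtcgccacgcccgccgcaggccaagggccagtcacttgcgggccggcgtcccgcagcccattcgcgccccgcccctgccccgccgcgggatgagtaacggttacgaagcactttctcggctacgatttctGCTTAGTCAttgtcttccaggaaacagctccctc
Of the array's genes, 14579 had such an entry. CCGGAAG was present in 12.1% of them, in 6.79% of the 221 genes called higher with an entry and in 13.1% of the 283 called lower. TATAAA was present in 8.55%, 14.03% and 3.89%, and TGACNNNGC in 11.5%, 9.95% and 12.01%. ZNF genes held CCGGAAG in 29.2% of 394 promoters, and those called lower in 8 of 34 (23.5%). A match is a description of these letters and not a binding site.

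Most genes named ZNF code for C2H2 zinc finger proteins that bind DNA and often silence transposable elements through a KRAB domain. By number they held the most calls of any list, being the longest, while the DNA repair list had a larger share lower (15.4%). Of 474 ZNF genes measured, 40 were called lower (8.44%) and 2 higher, beside 1.89% and 1.6% of all genes. Both arrays at 50 μM lay below both control arrays in 271 (57.2%) and above them in 69, beside 34.3% and 29.4% of all genes. The median log2 fold was −0.20. It was −0.16 at 10 μM and −0.30 at 100 μM against the same control arrays. ZNF121 gave 323 and 297 untreated, 191 and 154 with 10 μM, 183 and 179 with 50 μM and 80 and 123 with 100 μM, and all treated arrays lay below the control (−1.04 ± 0.09, adjusted p = 0.0154). ZNF605 gave 220 and 218 against 145 and 131 (−1.06 ± 0.16), ZNF136 had a log2 fold of −0.90 ± 0.16 and ZNF33A one of −0.90 ± 0.12. The 2 that rose were ZNF429 (0.75 ± 0.11) and ZNF691 (0.53 ± 0.08). ZNF800, with 3 probes, had log2 folds of −1.17, −0.63 and −0.19. Paralogues of this family resemble each other closely, so that a probe may also read a neighbour.

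The counts differed between levels and chromosomes. Among ZNF genes of the second of 5 level classes, counted from the dimmest, 18 of 102 were lower (17.6%), with a median of −0.37 where all genes of that class had 0.02 and 3.26% lower. In the middle class 15 of 158 were lower (9.49%, median −0.24 against −0.08), and in the brightest 1 of 45 (2.22%, median 0.02 against 0.00). On chromosome 19, which holds the large ZNF clusters, 25 of 222 were lower (11.3%, median −0.27), and elsewhere 15 of 252 (5.95%, median −0.11). The median kept its sign at −0.19 after loess, −0.21 after median scaling and −0.14 without scaling. With any 1 of the 4 arrays left out, 0 or 1 ZNF gene was called lower. The list was chosen with earlier results of these data known, and these counts are not independent support for its direction.

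**Figure D4:**
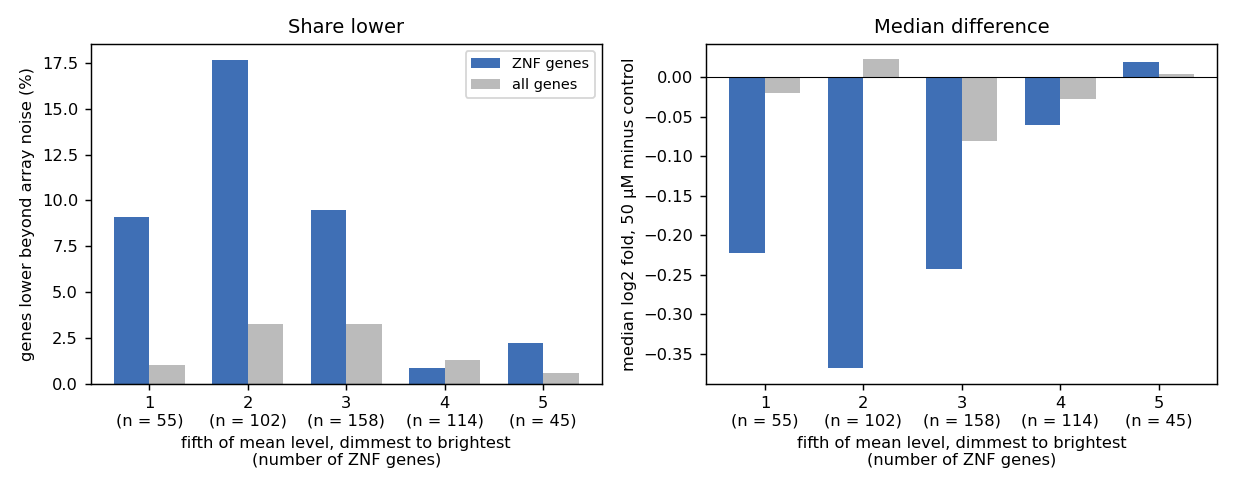
Share of genes lower beyond array noise (left, percent) and median log2 fold at 50 μM over the control (right) in 5 equal classes of mean level, for ZNF genes in blue and all genes in grey. The widest gap between the bars on the left is in the second class, at 17.6% against 3.26%.

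Genes that act next to IRS2 were looked at after their values had been seen. PIK3R1, the regulatory subunit p85α of PI3-kinase, gave 446 and 448 untreated, 212 and 211 with 10 μM, 244 and 205 with 50 μM and 117 and 152 with 100 μM. All treated arrays lay below the control (−1.16 ± 0.16, adjusted p = 0.032 at 50 μM). PIK3C2A, a class II PI3-kinase, gave 373 and 345 against 231 and 209 on one probe (−0.91 ± 0.11, called) and 5379 and 4468 against 2460 and 3008 on the other (−0.61 ± 0.13, not called). AKT2 and PDPK1, kinases downstream of PI3-kinase, were called on 1 of 3 probes each, at −1.04 and −0.98. The further probes of AKT2 were at 0.09 and 0.03, and those of PDPK1 at −0.30 and −0.18. The catalytic subunit PIK3CA was at −0.40 with an adjusted p of 0.0689 on its probe. IRS1, INSR, IGF1R, PIK3CB, PIK3R2, AKT1 and MTOR were not called, with log2 folds by gene between −0.32 and 0.12. IGF1, the growth factor, lay on the other side, with 130 and 148 against 372 and 387 on its dim probe (1.06 ± 0.09, adjusted p = 0.0114) and 0.56 ± 0.24 on the bright one.

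In the list of DNA repair genes the calls all ran one way. Of 26 measured, 4 were called lower and 0 higher, both arrays at 50 μM lay below both control arrays in 16 and above them in 2, and the median log2 fold was −0.29. Of all genes, 1.89% were called lower and 1.6% higher, and 34.3% lay below and 29.4% above. The median of the list was −0.24 at 10 μM and −0.38 at 100 μM. Its genes called lower at 50 μM numbered 13 after median scaling, 9 with an offset of 50, 0 without scaling and 0 with the 4 arrays alone. Of all 18255 genes, 2786, 1112, 0 and 0 were called lower under the same settings. The list was chosen with earlier results of these data known, and its counts are not independent support for a direction. MSH3, a mismatch repair protein, gave 5532 and 5805 untreated, 2372 and 2452 with 10 μM, 2986 and 3043 with 50 μM and 1594 and 1619 with 100 μM (−0.68 ± 0.10, adjusted p = 0.0399). POLK, a polymerase that copies past damaged bases, gave 922 and 815 against 487 and 537, and its 2 probes were at −0.78 and −0.74. BRCA1, of homologous recombination, gave 6619 and 5575 against 2963 and 3335 on one probe and 14739 and 13556 against 7108 and 8598 on the other, with a log2 fold by gene of −0.66 ± 0.12. NBN, of the complex that senses breaks, fell by 0.43 on the log2 scale. BRCA2 was at −0.98 ± 0.19 and just missed the test (adjusted p = 0.0505).

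Replication genes had negative medians and fewer calls. Of 29 S phase genes 1 was called, GINS1 of the replicative helicase, with 1222 and 1077 against 623 and 713 (−0.71 ± 0.10), and the median was −0.18. PCNA, the sliding clamp, was at −0.62 ± 0.13 without a call. Of 30 mitosis genes 0 passed, with a median of −0.15. In the list of 54 histone genes 3 were lower and 0 higher. Its median was −0.15, which turned to 0.30 after median scaling and 0.38 without scaling. HIST1H2BG, a histone gene measured under an older symbol, is not on that list and was also lower (−0.75 ± 0.10, adjusted p = 0.0353 in limma). Of all genes, 1.89% were called lower and 1.6% higher. The linker histone H1-4 gave 360 and 349 untreated, 339 and 287 with 10 μM, 228 and 222 with 50 μM and 119 and 181 with 100 μM (−0.88 ± 0.11). H2AC17 gave 1187 and 1129, 928 and 853, 615 and 719, and 444 and 510 at the same doses (−0.73 ± 0.08). Both were near the control at 10 μM, with log2 folds of 0.13 and 0.15. H2AC7, the third, was a probe at background level whose sign also turned under both of those scalings.

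Of 34 NRF2 targets, 1 was higher and 1 lower in the fit used here, a share near that of all genes (1.6% and 1.89%). The median was 0.04. With an offset of 50, 6 were higher and 1 lower, beside 922 and 1112 of all 18255 genes. A variance trend gave 6 and 1, beside 887 and 1040 of all genes. The 4 arrays alone gave 0 and 0, beside 3 and 0. Both arrays at 50 μM lay above both control arrays in 15 (44.1%) and below them in 6 (17.6%), beside 29.4% and 34.3% of all genes. AKR1B10, an aldo-keto reductase, gave 15 and 16 untreated, 124 and 115 with 10 μM, 103 and 121 with 50 μM and 100 and 152 with 100 μM, and was at least 1.64-fold higher. GCLM, the modifier subunit of the enzyme that begins glutathione synthesis, gave 645 and 557 untreated, 285 and 229 with 10 μM, 334 and 362 with 50 μM and 304 and 328 with 100 μM. It fell by 0.85 on the log2 scale (SE 0.09, adjusted p = 0.0233), while its promoter shown above holds the electrophile response core. HMOX1, NQO1 and SLC7A11, which NRF2 is known to switch on, were not called and were at 0.10, 0.36 and −0.44. TXNRD1 and SRXN1 were at 0.06 and −0.01. Of 24 glutathione and thioredoxin genes GCLM was the 1 called, and the median was 0.06.

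Of 37 genes of the endoplasmic reticulum stress response 2 rose and 0 fell, beside 1.6% and 1.89% of all genes. XBP1, a transcription factor of that response, gave 5568 and 5833 untreated but 6834 and 7430 with 50 μM (0.55 ± 0.08, adjusted p = 0.0399). CALR, the calcium-binding chaperone calreticulin of the reticulum, gave 7237 and 6506 against 7924 and 8578 (0.49 ± 0.09, adjusted p = 0.0472). DDIT3, a mediator of cell death in this response, was at 0.52 ± 0.11 and ATF4 at 0.23 ± 0.09, without a call. The median of the list was 0.17, and −0.03 after median scaling. In the heat shock list 1 of 18 was lower, the chaperone HSP90AA1, with 69108 and 68777 against 38620 and 44439 on its brighter probe and a log2 fold by gene of −0.47 ± 0.08. BCL2L1, which restrains apoptosis, was the 1 of 26 apoptosis genes called (0.60 ± 0.12, adjusted p = 0.0494). Of 23 p53 targets and 21 inflammation genes 0 passed, with medians of −0.01 and 0.34, and the inflammation genes are dim, with a median of 0.91 after median scaling.

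**Figure D5:**
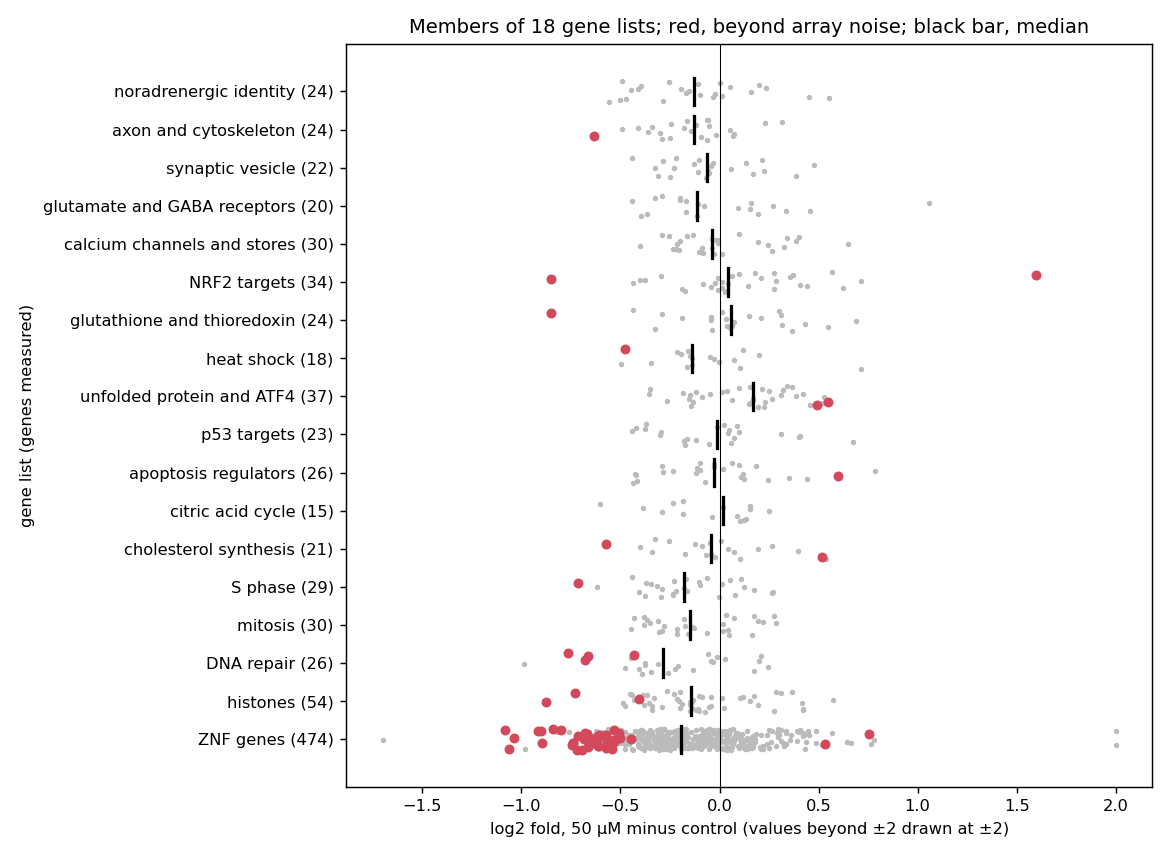
Log2 fold at 50 μM over the control of each measured member of 18 gene lists, with the number of genes in brackets, members beyond array noise in red and the median as a black bar; values beyond ±2 are drawn at ±2. Red points to the left gather in the DNA repair and ZNF lists, and most other lists hold none or 1.

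No gene passed the test in the pathways of energy metabolism. Of 15 citric acid cycle genes 0 were called (median 0.02), of 8 genes of ketone body and coenzyme A use 0 (−0.13), of 12 dicarboxylate carriers 0 (0.16) and of 25 glycolysis and hypoxia genes 0 (−0.04). Respiratory complex I and complexes III to V had medians of −0.01 and 0.02 with 0 of 37 and 0 of 31 called. Cholesterol genes held 1 in each direction, beside 1.6% of all genes called higher and 1.89% lower. SREBF2, the master regulator of sterol synthesis, gave 1479 and 1464 against 1940 and 1851 (0.52 ± 0.09, adjusted p = 0.0464), and the sterol carrier STARD4 742 and 733 against 511 and 486 (−0.57 ± 0.09, adjusted p = 0.0416). Cytosolic ribosomal proteins (0 of 72), proteasome subunits (0 of 31) and mitochondrial ribosomal proteins (1 of 75, MRPL53 higher) had medians of 0.03, 0.02 and 0.04. EEF1D, a translation elongation factor, was higher (0.59) and the initiation factor EIF5B lower (−0.50), and SNRPD3, a core spliceosome protein, was lower (−0.77 ± 0.15).

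Lists of neuronal function held 1 called gene or none, beside 1.6% of all genes called higher and 1.89% lower. MAP2 was the 1 of 24 axon and cytoskeleton genes called, by gene at −0.63 ± 0.11, and the list's median was −0.13. Of 22 synaptic vesicle genes, 30 genes of calcium channels and stores and 20 glutamate and GABA receptor genes 0 passed, with medians of −0.06, −0.04 and −0.11. Of 20 potassium channel genes KCNQ5, a channel of the M current that calms neurons, was lower (−0.53 ± 0.09, adjusted p = 0.0464).

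The study followed 4 genes by PCR on independent biological replicates and reported a significant, dose-dependent rise of all 4. On the arrays at 50 μM, which are technical replicates, their bright probes lay above the control without passing the test. GRIA1, a glutamate receptor subunit, gave 2873 and 2835 untreated, 3693 and 2306 with 10 μM, 3906 and 4603 with 50 μM and 4144 and 3288 with 100 μM (0.80 ± 0.23, adjusted p = 0.0877). GGT5, which cleaves glutathione conjugates, was at 0.69 ± 0.21, the calcium-binding S100A3 at 0.70 ± 0.18 and GNRHR, the receptor for gonadotropin-releasing hormone, at 0.62 ± 0.16. In all 4 both arrays at 50 μM exceeded both control arrays. Dimmer probes of the same genes had log2 folds of −0.09 and 0.11 for GRIA1, −0.57 for S100A3 and 0.24 and −0.03 for GNRHR, none of them called. HPRT1, the PCR reference gene of the study, gave 29745 and 22093 untreated, 13869 and 10080 with 10 μM, 15003 and 14693 with 50 μM and 15706 and 18634 with 100 μM (−0.58 ± 0.18, adjusted p = 0.0976 over all probes), and in deposited intensity every treated array lay below both control arrays. In normalised level this did not hold at 100 μM, where its log2 fold over the control was −0.0006, beside −0.50 at 10 μM. Of 11 genes that the study tied to calcium or thiols 0 were called (median 0.27). Of 36 genes of the study's heatmap, RSPH6A, IGF1 and PKD1L1 were higher, and HIST1H2BG, ZNF800 and PDPK1 lower (median 0.29). Among all genes, 1.6% were called higher and 1.89% lower. The study drew both lists from probes over 2-fold at 100 μM by its own error model. A call by gene at 50 μM uses another dose and measure, and does not check the study's own calls. At 100 μM the medians of the lists were 0.50 and 0.85. Both lists were chosen on these samples, so that they are not independent evidence of their direction.

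The genes called at 50 μM are given here with their values at the neighbouring doses. The 292 higher genes had medians of 0.60 at 10 μM, 0.75 at 50 μM and 0.92 at 100 μM, and the 345 lower genes of −0.48, −0.59 and −0.65. All 3 sets of values share the control arrays, and the genes were chosen on the middle one, so that a likeness between them is partly built in. A direct comparison leaves the control arrays out of the difference, though its spread was taken over all 8 arrays. In it, 0 genes were higher (0%) and 2 lower (0.011%) at 50 than at 10 μM, IRS2 and PTDSS1. An unadjusted p under 0.05 was reached by 873 and 749. Against 100 μM, 13 genes were higher (0.0712%) and 18 lower (0.0986%) at 50 μM, beside 2070 and 1748 with an unadjusted p under 0.05. On its dim probe, which was under background at 50 μM, IRS2 was lower there than at 10 μM (adjusted p = 0.00961) and than at 100 μM (adjusted p = 0.0167). NT5C1B was lower than at 100 μM by a log2 fold of −1.17. SREBF2, higher at 50 μM, was at −0.06 at 100 μM against the control. Its direct difference between 50 and 100 μM was 0.58 and did not pass (adjusted p = 0.0989 in limma). A p that misses the threshold does not show that 10 and 50 μM act alike.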

How the data were processed

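The authors hybridised Cy5-labelled RNA to the Human Whole Genome OneArray v6, and the scans went through GenePix and Rosetta Resolver, with spots flagged below 0 removed. The deposited unit is a linear intensity. A median scaling is named in the study's methods, yet the deposited array medians run from 336 to 524. The sources used here do not state the background subtraction.

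Intensities were floored at 1, taken to log2 and quantile normalised over the 8 arrays with limma 3.58.1 in R 4.3.3. Tables and plots were made with Python 3.11.15, pandas 2.3.3 and matplotlib 3.10.9. Arrays of a dose were averaged. The 2-fold threshold was taken from the study, whose own folds came from the error model of Rosetta Resolver and not from such averages. A limma fit (lmFit, eBayes, 4 residual degrees of freedom) over the 8 arrays, by probe and by gene (mean over probes), gave SEs and two-sided p-values with Benjamini-Hochberg adjustment. Its spread is technical. On data simulated for 31741 probes with array noise only, it recovered 51% of log2 changes of 1 and 89% of changes of 2, with 10 false calls. A gene beyond array noise is one with an adjusted p under 0.05. The background level of 50 was chosen after values had been seen.

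Of the probes, 24658 had 1 gene symbol in the platform annotation (2177 updated through RefSeq synonyms, 77 kept as given), 1002 had several and 6081 are unnamed here. The named genes are the 12 highest and 12 lowest probes that were over 2-fold, beyond array noise, not overlapping and above background in the brighter dose, up to 4 called members of each of 43 lists, genes the study names, genes apart from both neighbouring doses and probes with the widest gap between arrays. Genes next to IRS2, CHMP4B, ROBO4, PTDSS1, further list members and those without a call were added after their values were seen. The members and lists were chosen with earlier results of these data known.

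Same-numbered arrays did not deviate together (r from −0.0796 to 0.11 across probes, −0.0084 for control and 50 μM), so replicate numbers pair nothing. Alternatives were other scalings, a floor of 32, an offset of 50, a filter at a mean intensity of 100, a variance trend, the 4 arrays alone, a replicate block and each array left out.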

Additional observations from a re-analysis of the deposited data

Results flagged for a closer look

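Of the genes called against the control, 12 higher and 2 lower ones also differed between 50 and 100 μM in the limma fit over all genes, and 1 lower one differed between 50 and 10 μM. These contrasts leave out the control arrays, and the spread is that between technical arrays. IRS2 was lower at 50 than at 10 μM by a fitted difference of −1.65 by gene and lower than at 100 μM by −1.19, both resting on its dim probe, which was under background at 50 μM, so that they give no size. C21orf90 had a fitted difference of 6.57 between 50 and 100 μM, but it was under background at 100 μM, and at least 19-fold higher at 50 μM against that level. GTF2I, a general transcription factor, was higher at 50 than at 100 μM by 0.8.

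The other genes of this kind were lower at 50 than at 100 μM. IGF2BP2, which binds RNA, differed by −1.2, the transcription factor LHX2 by −1.12 and FGF23, the phosphate hormone, by −1.15. NT5C1B differed by −1.17, SDR16C5, a retinol dehydrogenase, by −1.01, GCSAML by −1.03 and A1CF, a partner of the APOB mRNA editing enzyme, by −0.928. The transcription factor SPIC differed by −0.82, LAMB4, a laminin chain, by −0.762, LOC644669 by −0.979 and POM121L8P, a pseudogene, by −1.43.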

How the results depend on the processing

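Probes over 2-fold higher at 50 μM numbered 357, and 691 after loess, 4807 after median scaling, 5454 without scaling, 99 with an offset of 50, 212 with a floor of 32 and 199 with the filter on dim probes, and lower ones 144, and 89 after median scaling, 60 without scaling, 36, 61 and 48. Leaving out 1 array gave 392 to 523 and 181 to 285. Genes higher numbered 292, and 556 after loess, 2937 after median scaling, 23 without scaling, 3 with the 4 arrays alone, 922 with the offset, 753 with the floor, 1020 with the filter and 887 with the variance trend, and genes lower 345, and 569, 2786, 0, 0, 1112, 934, 1169 and 1040. Without 1 array they numbered 9 to 40 and 3 to 12, fewer with either control array or either array at 50 μM left out, where the lone array is assumed to vary like the others and 1 degree of freedom is lost. ZNF genes lower numbered 40, and 62, 119, 0, 0, 98, 87, 97 and 89 in the same order, and 0 to 1 without 1 array. The ZNF median minus that of the middle level class stayed at −0.14 to −0.09 under every alternative.

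Against 10 μM, 0 genes were higher, 1 with the offset, the floor, the filter or the trend and 1 to 1 without 1 array, and 2 were lower, 0 after loess, median scaling or none, 7 with the floor, 6 with the filter and 1 to 7 without 1 array. Against 100 μM, 13 were higher, 5 after loess, 1 after median scaling, 4256 without scaling, 78 with the offset, 29 with the floor, 59 with the filter, 39 with the trend and 8 to 11 without 1 array, and 18 were lower, 2, 0, 5, 131, 77, 102, 55 and 3 to 6.

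The replicate numbers pair nothing, and the fit with the replicate number as a block called 26 genes higher, 5 lower, 2 ZNF genes lower and 3 genes lower than at 100 μM. Of 67 single differences, 3 reversed, all at background level, with median scaling and without scaling: KCNQ1DN (0.15 and 0.22), LYZ (0.79 and 0.86) and H2AC7 (0.86 and 0.93). KIF15 and NT5C1B were called under every alternative run. Without scaling, 54 of the 67 lost their call, and with the 4 arrays alone 64 did. Calls of single genes therefore varied with the scaling and with the arrays that entered the fit, and why they were lost was not tested. With 1 RNA sample per dose their repeatability between cultures cannot be told. Dim probes are limited by the background, under which 167 of the 357 higher probes lay in the control.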

Other observations

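Olfactory receptor genes, which code for the odour receptors of the nose, are dim on these arrays. Of 297 measured, 10 were called higher and 2 lower at 50 μM, and both arrays lay above both control arrays in 140 and below them in 38. Of all genes, 1.6% were called higher and 1.89% lower, and 29.4% lay above and 34.3% below. The median log2 fold was 0.18, and 0.78 after median scaling and 0.85 without scaling. OR4C13 gave 38 and 33 untreated, 124 and 115 with 10 μM, 143 and 142 with 50 μM and at least 130 with 100 μM, and its log2 fold was 1.10 ± 0.19. The control arrays were the lowest of the 8. OR4K15, called lower but under background at 50 μM and so without a measured size, gave 27 and 44 untreated but 54 and 36 with 50 μM before scaling, so that its direction came with the scaling of dim probes.

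A few probes lost nearly all signal on 1 array of a dose. SPMIP3 gave 5 and 61545 on the control arrays and GLUL, glutamine synthetase, 37749 and 11, while at 50 μM CCNB1IP1 gave 34 and 31460 and EID2 2854 and 21. Their means have no meaning, and none was called. CSDC2, an RNA-binding protein of the brain, gave 367 and 592 untreated but 1467 and 1819 with 50 μM on one probe (log2 fold 1.79) and 0.02 on its second probe. CLC, the galectin of eosinophil crystals, gave 534 and 402 against 1554 and 1185 (1.53 ± 0.23).

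Several further lists held no called gene. Their medians were −0.0040 for 15 genes of the mesenchymal neuroblastoma state, 0.08 for 18 immediate early genes, 0.11 for 16 S100 calcium-binding proteins, 0.14 for 9 metallothionein and zinc exporter genes, −0.12 for 6 host genes of small nucleolar RNAs and nuclear long RNAs and 0.22 for 11 reference genes of PCR. Of 37 splicing genes SNRPD3 was the 1 called, with a median of −0.06.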
